A study of Mus musculus with 16 samples.

Results

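The genes described here are the 7 MHC class II genes Cd74, H2-Aa, H2-Ab1, H2-Eb1, H2-DMa, H2-DMb1 and Ciita, taken by gene symbol from a table of 55359 mouse genes. All 7 were found, and all 7 were among the 17737 genes kept by the filter on low counts. RNA was sequenced in bulk from cortex after injection of mice with an AAV, a viral gene carrier, to ask how polyG proteins alter the transcriptome. The 16 libraries formed 4 groups of 4, 1 for each construct, and all animals received a virus. ATG-GGC11 (3A6) carried 11 GGC repeats and ATG-GGC100 (3A7) 100 repeats, both with an ATG start codon. TAG-GGC100 (3A8) carried 100 repeats with TAG, a stop codon, in that place. ATG-GGN100dCT (3A9) carried 100 GGN units, in which N is any base, so that each unit is a codon for glycine. The strain, sex and age of the mice, the promoter of the constructs, the meaning of dCT and the number of animals behind a library are not given in the sources used here. Nor do the labels tell whether each library is a different animal, and the p-values then reflect only how far these samples spread, which may be technical.

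MHC class II molecules hold peptides from proteins taken up by a cell and show them to CD4+ T cells. The α and β chains are built together with the invariant chain, which blocks the peptide groove until proteases of the endosome cut it, and the H2-DM molecule then exchanges its remnant for a peptide. The genes are switched on together by the transactivator Ciita, which interferon γ induces and which acts through factors bound to X and Y boxes in their promoters. In healthy brain tissue class II is carried mainly by macrophages and dendritic cells of the borders, and microglia, the resident macrophages, can gain it in disease.

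The 5 H2 genes lie together on chromosome 17, between 34338515 and 34535648 in the coordinates of the deposited table, which does not name its build. In order along the chromosome they are H2-DMa (34338515 to 34358075, plus strand), H2-DMb1 (34372046 to 34379204, plus), H2-Ab1 (34476663 to 34488393, plus), H2-Aa (34501718 to 34506797, minus) and H2-Eb1 (34524841 to 34535648, plus). Ciita is on chromosome 16 (10297923 to 10346282, plus). RefSeq promoter windows of 300 bases on GRCm38.p6, from 250 bases before the start of a gene to 50 after it, matched 4 of the 7 genes by symbol: H2-Aa, H2-Eb1, H2-DMa and H2-DMb1. The windows of 3 of them are shown, and a relation of the matches to the levels below was not tested. H2-Eb1 is at chr17:34305617-34305916 on the plus strand, H2-DMb1 at chr17:34152941-34153240 on the plus strand and H2-Aa at chr17:34287774-34288073 on the minus strand. Capitals mark, on either strand, the X box core AACNGATG and the Y box CTGATTGG or its core ATTGG, which overlaps it.
H2-Eb1: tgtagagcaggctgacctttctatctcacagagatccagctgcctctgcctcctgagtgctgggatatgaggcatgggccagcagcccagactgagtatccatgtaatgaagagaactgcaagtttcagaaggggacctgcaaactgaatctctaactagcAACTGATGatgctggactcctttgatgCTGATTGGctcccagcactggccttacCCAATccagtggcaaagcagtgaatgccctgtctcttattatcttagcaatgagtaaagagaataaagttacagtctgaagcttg
H2-DMb1: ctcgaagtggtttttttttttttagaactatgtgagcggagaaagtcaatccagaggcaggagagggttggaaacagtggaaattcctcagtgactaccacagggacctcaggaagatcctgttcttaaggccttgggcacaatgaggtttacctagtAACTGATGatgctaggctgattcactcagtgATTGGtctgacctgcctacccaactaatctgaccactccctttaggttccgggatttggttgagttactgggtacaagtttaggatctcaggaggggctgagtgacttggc
H2-Aa: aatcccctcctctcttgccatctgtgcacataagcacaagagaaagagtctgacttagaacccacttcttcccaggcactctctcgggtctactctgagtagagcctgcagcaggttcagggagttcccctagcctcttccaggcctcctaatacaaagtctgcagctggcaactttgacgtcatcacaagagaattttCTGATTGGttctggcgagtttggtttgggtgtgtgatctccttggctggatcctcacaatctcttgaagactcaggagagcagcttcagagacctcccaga
The H2-Eb1 window held an X box core starting 89 bases before the gene start and a Y box starting 62 bases before it, with 22 bases between the X box core and the Y box core. A further Y box core, on the other strand, started 35 bases before the gene start. In H2-DMb1 the X box core started 92 bases and a Y box core 61 bases before the gene start, with 23 bases between them. The H2-Aa window held a Y box 51 bases before the start and no match to the X box core. H2-DMa has 2 windows, with 1 Y box core in the second as the only match. Of all 32851 windows, 2.32% held the X box core, 4.10% the Y box, 37.4% the Y box core, and 0.880% both cores. The interferon γ activated site TTCNNNGAA, held by 8.30% of all windows, had no match in the windows of these genes. Outside the 7 genes, the H2-Eb2 window also held both cores with 22 bases between them, and the H2-Ob window held no X box core. A match is a run of letters and does not show that a factor was bound.

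Library totals ran from 12838756 to 19131210 counts. Against the cortex label, the 7 cortical neuron markers summed to 932 to 1005 FPKM (fragments per kilobase of exon scaled to the library total) in the group means, and none of them passed the test in any comparison. Of all genes tested, 0.00564% to 8.69% passed in either direction, depending on the comparison. ATG-GGN100dCT replicate 3 stood apart from its group. It gave the 2 highest chi-square values per degree of freedom among pairs of libraries of one group, 22.7 with replicate 2 and 17.4 with replicate 1. The 4 oligodendrocyte markers summed to 374 FPKM in it and to 705 to 746 FPKM in the other libraries of its group, and the microglial markers to 97.5 FPKM, the lowest of the series. Without it the edgeR calls of the 7 genes were the same, except that H2-Aa was added in ATG-GGC100 against TAG-GGC100. Genes were tested with edgeR's quasi-likelihood test over all 16 libraries, and a gene was called at a Benjamini-Hochberg adjusted p under 0.05 over all genes tested. The comparisons share groups, so their results are not independent of each other. In bulk tissue, fewer cells of a type and less RNA per cell cannot be told apart.

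Cd74 (chromosome 18, 60936920 to 60945724 on the plus strand in the deposited table) encodes the invariant chain and was the most abundant of the genes in ATG-GGC100. It stood at 5.63, 8.5, 7.44 and 11.09 FPKM in replicates 1 to 4 of ATG-GGC100, against 1.22, 2.37, 6.11 and 0.97 FPKM in ATG-GGC11. In TAG-GGC100 it was 2.33, 2.97, 2.88 and 2.93 FPKM, and in ATG-GGN100dCT 2.42, 4.14, 1.85 and 5.55 FPKM. All 4 ATG-GGC100 libraries were above all TAG-GGC100 and ATG-GGN100dCT libraries, while ATG-GGC11 replicate 3 reached into the ATG-GGC100 range. The group means were 8.16 ± 2.28 (SD, n = 4) in ATG-GGC100, 3.49 ± 1.68 in ATG-GGN100dCT, 2.78 ± 0.301 in TAG-GGC100 and 2.67 ± 2.37 FPKM in ATG-GGC11. For none of the 7 genes did a pair of groups that follow each other in the order of the means pass the test, with adjusted p of at least 0.105.

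**Figure D1:**
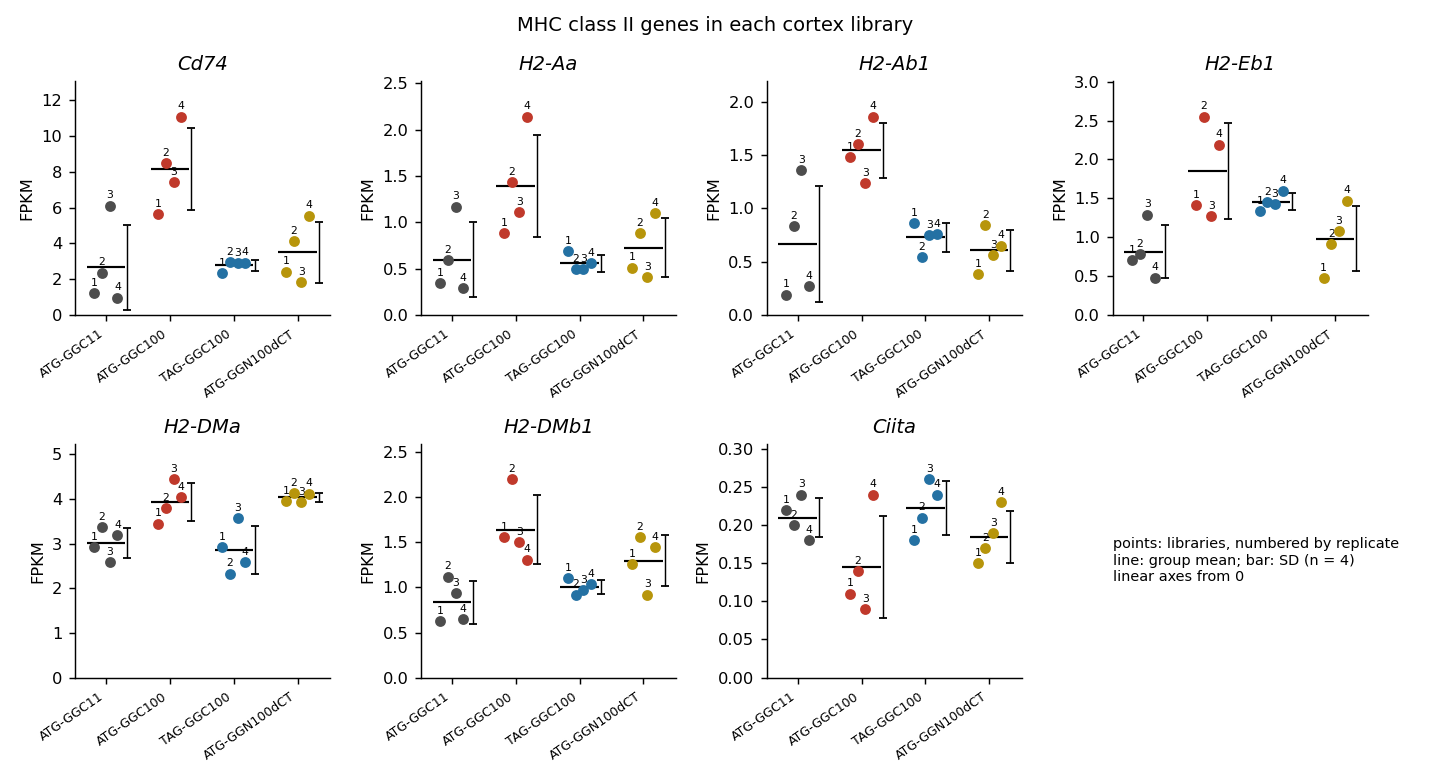
FPKM of each gene (linear axis from 0) in each library, numbered by replicate within the 4 constructs, with the group mean (line) and SD (bar, n = 4). Cd74 was 5.63 to 11.09 FPKM in the ATG-GGC100 libraries, and ATG-GGC11 replicate 3, at 6.11 FPKM, stood above the other libraries of its group.

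H2-Aa and H2-Ab1 encode the α and β chains of the I-A molecule. H2-Aa stood at 0.88, 1.43, 1.11 and 2.14 FPKM in ATG-GGC100 and at 0.34, 0.59, 1.17 and 0.29 FPKM in ATG-GGC11. Its values in TAG-GGC100 were 0.69, 0.49, 0.49 and 0.56 FPKM, and in ATG-GGN100dCT 0.51, 0.88, 0.41 and 1.1 FPKM. ATG-GGC100 was above every TAG-GGC100 library and overlapped the other 2 groups, ATG-GGC11 through replicate 3 and ATG-GGN100dCT through replicate 4 and, by its equal value, replicate 2. H2-Ab1 stood at 1.48, 1.6, 1.24 and 1.86 FPKM in ATG-GGC100, against 0.19, 0.83, 1.36 and 0.27 FPKM in ATG-GGC11. It was 0.86, 0.54, 0.75 and 0.76 FPKM in TAG-GGC100 and 0.38, 0.84, 0.56 and 0.65 FPKM in ATG-GGN100dCT. Here ATG-GGC100 was above all libraries of both of these groups, and only ATG-GGC11 replicate 3 overlapped it.

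H2-Eb1, the β chain of the I-E molecule, differed from the I-A genes in TAG-GGC100. Its values were 1.41, 2.55, 1.27 and 2.19 FPKM in ATG-GGC100 and 0.7, 0.78, 1.29 and 0.48 FPKM in ATG-GGC11. TAG-GGC100 held 1.34, 1.45, 1.43 and 1.6 FPKM, and ATG-GGN100dCT 0.47, 0.91, 1.08 and 1.47 FPKM. TAG-GGC100 lay within the ATG-GGC100 range and above all ATG-GGC11 libraries, whereas its H2-Aa, H2-Ab1 and Cd74 levels lay within the ATG-GGC11 range. H2-Ea, the α chain gene that pairs with H2-Eb1, had a single count over all 16 libraries. The related gene H2-Eb2 also had a single count.

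H2-DMa and H2-DMb1 encode the chains of H2-DM, the peptide exchanger. H2-DMa stood at 3.45, 3.79, 4.44 and 4.05 FPKM in ATG-GGC100 and 2.92, 3.37, 2.59 and 3.19 FPKM in ATG-GGC11. Its values were 2.93, 2.33, 3.57 and 2.58 FPKM in TAG-GGC100 and 3.96, 4.14, 3.93 and 4.12 FPKM in ATG-GGN100dCT. Both ATG-GGC100 and ATG-GGN100dCT were above every ATG-GGC11 library, and ATG-GGN100dCT was also above every TAG-GGC100 library. H2-DMb1 stood at 1.56, 2.2, 1.5 and 1.31 FPKM in ATG-GGC100 and at 0.63, 1.12, 0.94 and 0.65 FPKM in ATG-GGC11. It was 1.1, 0.92, 0.97 and 1.04 FPKM in TAG-GGC100 and 1.26, 1.56, 0.92 and 1.45 FPKM in ATG-GGN100dCT. For H2-DMb1, ATG-GGC100 was above all libraries of ATG-GGC11 and TAG-GGC100 and overlapped ATG-GGN100dCT. On a GRCm38 annotation, 22.7% of the 50-base stretches of H2-DMb1 transcripts also occur in its neighbour H2-DMb2, so reads of the pair may be shared. Exons of H2-DMa overlap those of Brd2 on the other strand over 360 of 3448 bases (10.4%), and the strand used in counting was not given. Brd2 itself had group means of 21.1 (TAG-GGC100) to 24.3 FPKM (ATG-GGC100) and did not pass the test in any comparison. Against TAG-GGC100 its log2 fold change was 0.16 in ATG-GGC100 (edgeR adjusted p = 0.0910) and 0.12 in ATG-GGN100dCT (adjusted p = 0.202). Against ATG-GGC11 the values were 0.01 and -0.03. The part of Brd2 in the H2-DMa counts was not tested. Gm50335, also on the other strand, overlaps 1491 bases of the H2-DMa gene span in the deposited table. Its means were 1.89 ± 0.542 FPKM in ATG-GGC100 and 2.15 ± 0.498 in ATG-GGN100dCT, against 1.07 ± 0.490 in ATG-GGC11 and 1.07 ± 0.343 in TAG-GGC100, so it was higher by its means in the same constructs as H2-DMa. It passed in no comparison, with adjusted p of 0.0753 (against TAG-GGC100) and 0.0814 (against ATG-GGC11) for ATG-GGN100dCT, and its part in the H2-DMa counts was not tested.

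Ciita, the transactivator, was the least abundant, and its mean was lowest in ATG-GGC100. It stood at 0.11, 0.14, 0.09 and 0.24 FPKM in ATG-GGC100 and 0.22, 0.2, 0.24 and 0.18 FPKM in ATG-GGC11. In TAG-GGC100 it was 0.18, 0.21, 0.26 and 0.24 FPKM, and in ATG-GGN100dCT 0.15, 0.17, 0.19 and 0.23 FPKM. Replicates 1 to 3 of ATG-GGC100 were below every other library of the series, and replicate 4 was within the range of the other groups. These levels rest on 16 to 40 counts per library. Ciita shares 329 of its 9535 exonic bases with Dexi on the other strand. Dexi itself had group means of 9.755 to 11.025 FPKM and did not pass the test in any comparison. Its part in the Ciita counts was not tested.

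**Figure D2:**
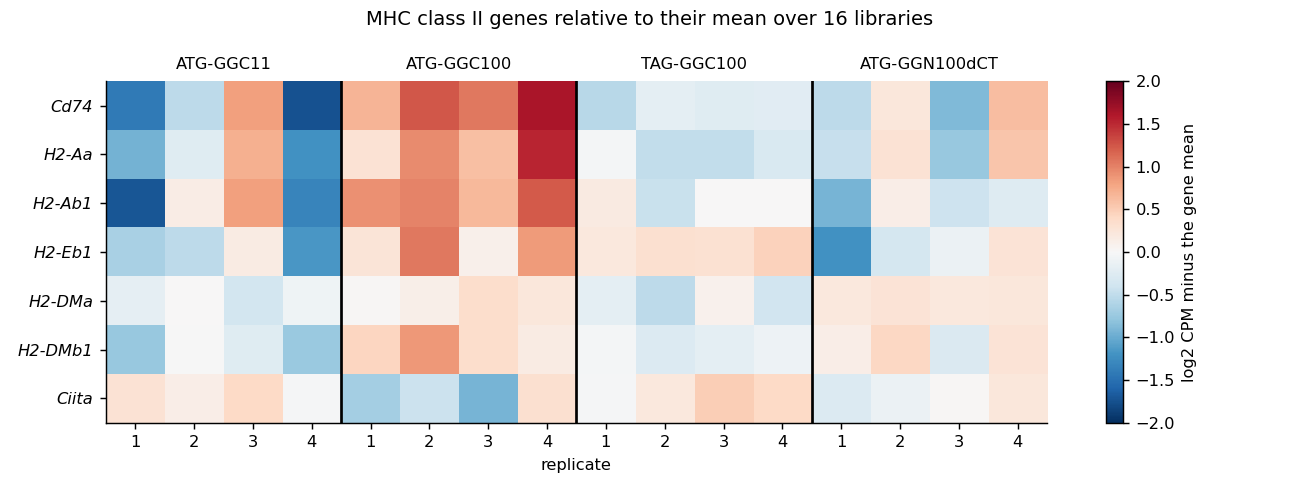
Each gene's level in each library as log2 CPM (counts scaled to the library total and by TMM) minus the gene's mean over the 16 libraries, red above and blue below the mean. Cd74, H2-Aa, H2-Ab1 and H2-Eb1 were above their means in ATG-GGC100 and in ATG-GGC11 replicate 3. H2-Eb1 was above its mean in every TAG-GGC100 library too (0.207 to 0.457), and H2-DMa and Ciita took other courses.

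The longer repeat was compared with the shorter one, both with ATG. In ATG-GGC100, H2-Eb1 and H2-DMb1 rose relative to ATG-GGC11. The mean of H2-Eb1 was 1.85 ± 0.615 against 0.812 ± 0.343 FPKM (SD, n = 4), which is 1.12 ± 0.30 as a log2 fold change with its standard error (edgeR adjusted p = 0.0452). The mean of H2-DMb1 was 1.64 ± 0.387 against 0.835 ± 0.237 FPKM, a log2 fold change of 0.91 ± 0.23 (adjusted p = 0.0318). So 2 of 7 genes were called higher, where 2.2% of all genes tested were called higher and 3.5% in either direction. The largest log2 fold change was that of Cd74, 1.54 ± 0.46, with an adjusted p = 0.0964. H2-Aa (1.14 ± 0.38, adjusted p = 0.125), H2-Ab1 (1.13 ± 0.39, adjusted p = 0.130) and H2-DMa (0.34 ± 0.12, adjusted p = 0.142) did not pass either. Ciita had a log2 fold change of -0.62 ± 0.26 (adjusted p = 0.219). All 7 had an unadjusted p under 0.05, as did 16.7% of all genes. The median log2 fold change was 1.12 over the 7 genes and -0.0015 over all genes tested. Of the 7, 2 did not overlap between the groups, both higher in ATG-GGC100 (H2-DMa and H2-DMb1), against 8.09% of all genes.

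These calls turned on the method and on single libraries. With all 16 libraries, DESeq2 also called Cd74 (adjusted p = 0.0393) and H2-Aa (adjusted p = 0.0426). On log2(FPKM + 1), limma also called Cd74 (adjusted p = 0.0206) and H2-Ab1 (adjusted p = 0.0397). On log2(FPKM + 0.1), limma called Cd74 (adjusted p = 0.0267) and not H2-Eb1 (adjusted p = 0.0518). Without ATG-GGC11 replicate 3, 4 genes were called: Cd74 (log2 fold change 2.33, edgeR adjusted p = 0.0024), H2-Aa (1.68, adjusted p = 0.0135), H2-Ab1 (1.72, adjusted p = 0.0112) and H2-Eb1 (1.42, adjusted p = 0.0182). The H2-Eb1 call was lost without ATG-GGC11 replicate 1, 2 or 4 or ATG-GGC100 replicate 2 or 4 (adjusted p = 0.0978 to 0.167) and without any of the 4 TAG-GGC100 libraries (adjusted p = 0.0546 to 0.0579). That of H2-DMb1 was lost without ATG-GGC11 replicate 1, 3 or 4 or ATG-GGC100 replicate 2 or 3 (adjusted p = 0.0535 to 0.131). Without ATG-GGC100 replicate 4, Ciita was called lower, with a log2 fold change of -0.95 (adjusted p = 0.0374). With only the 8 libraries compared in the fit, H2-DMb1 was not called (adjusted p = 0.0532). The adjusted p ranged from 0.0024 to 0.228 for Cd74 over 25 alternatives, and from 0.0374 to 0.479 for Ciita over the 24 that held it.

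The same long repeat with TAG in place of ATG was compared with the short repeat. In TAG-GGC100 against ATG-GGC11 none of the 7 genes was called, where 0.00564% of all genes tested were. H2-Eb1 had the largest difference, a mean of 1.46 ± 0.108 against 0.812 ± 0.343 FPKM and a log2 fold change of 0.81 ± 0.31 (edgeR adjusted p = 0.570). All 4 TAG-GGC100 libraries were above all ATG-GGC11 libraries for H2-Eb1, as for 2.14% of all genes. It was the 1 gene of the 7 with an unadjusted p under 0.05, as had 6.87% of all genes, and DESeq2 called none. The other 6 log2 fold changes lay between -0.14 (H2-Aa) and 0.25 (H2-DMb1). Cd74 was at 0.03 ± 0.49, and without ATG-GGC11 replicate 3 at 0.82.

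The ATG and TAG forms of the long repeat were compared directly. In ATG-GGC100 against TAG-GGC100, H2-DMa rose, with a mean of 3.93 ± 0.418 against 2.85 ± 0.538 FPKM and a log2 fold change of 0.43 ± 0.12 (edgeR adjusted p = 0.0371). It was the 1 gene of 7 called higher, where 4.05% of all genes were called higher and 7.44% in either direction. The call was lost without ATG-GGC100 replicate 2, 3 or 4 or TAG-GGC100 replicate 1, 2 or 4 (adjusted p = 0.0554 to 0.152). With only the 8 libraries compared in the fit, H2-DMa was not called (adjusted p = 0.0727), while Cd74, H2-Aa and H2-Ab1 were (adjusted p = 0.000272, 0.00996 and 0.00823). Larger log2 fold changes that did not pass were those of Cd74 (1.51 ± 0.46, adjusted p = 0.0670), H2-Aa (1.28 ± 0.39, adjusted p = 0.0566), H2-Ab1 (1.06 ± 0.39, adjusted p = 0.105) and H2-DMb1 (0.67 ± 0.23, adjusted p = 0.0810). These 4 genes did not overlap between the groups, as 9.62% of all genes did not, higher in ATG-GGC100. ATG-GGC11 replicate 3 is in neither group and enters this comparison through the shared filter, scaling and estimate of the spread. Without it, Cd74, H2-Aa and H2-Ab1 passed as well, with Cd74 at an adjusted p = 0.0103 (0.0003 to 0.152 over the alternatives). H2-Aa also passed without ATG-GGC11 replicate 4, ATG-GGC100 replicate 1 or ATG-GGN100dCT replicate 3 (adjusted p = 0.0444 to 0.0468), and H2-Ab1 without ATG-GGC11 replicate 1 (adjusted p = 0.0483). H2-Eb1 had a log2 fold change of 0.30 ± 0.29 (adjusted p = 0.572). Ciita stood at -0.69 ± 0.26 (adjusted p = 0.109), and at -1.02 without ATG-GGC100 replicate 4 (adjusted p = 0.0147).

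**Figure D3:**
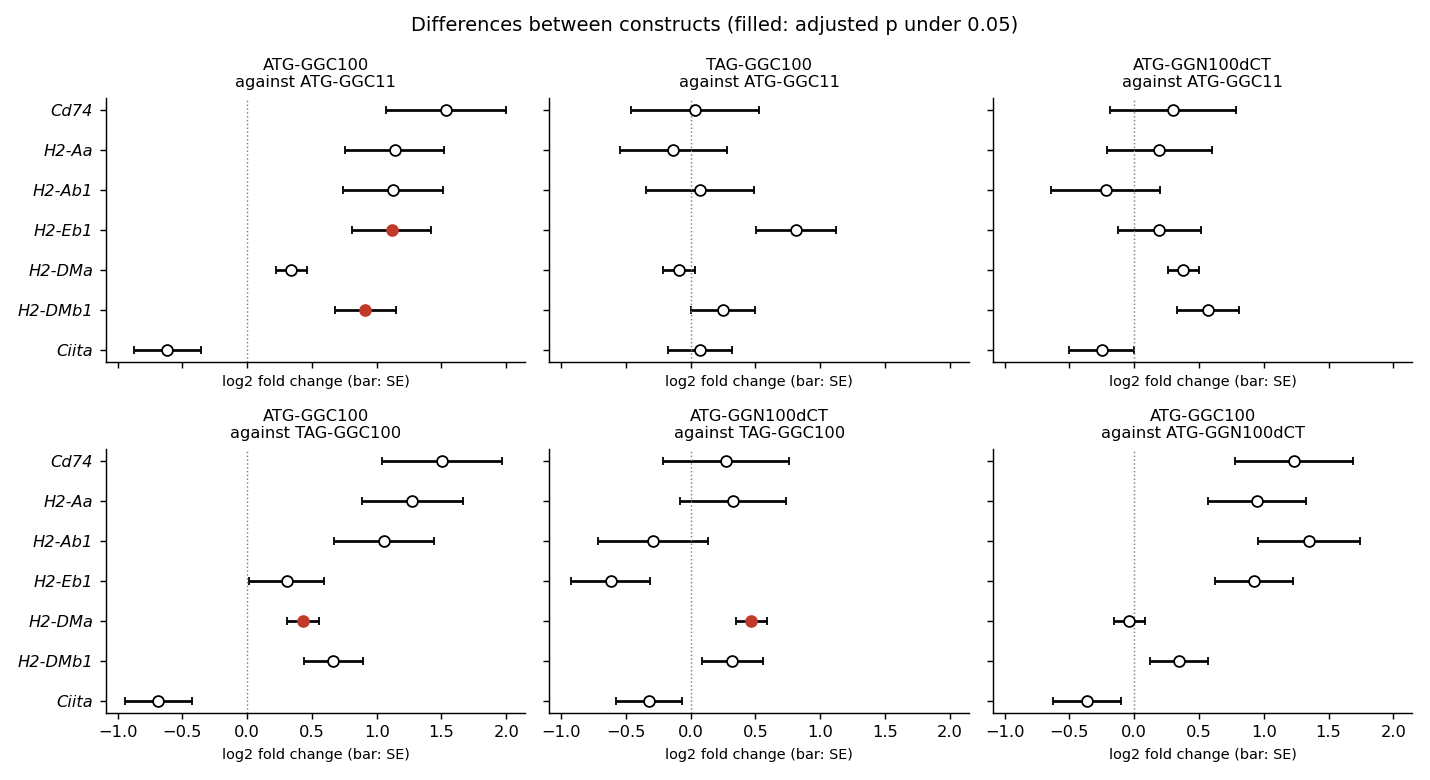
Log2 fold change (point) and its standard error (bar) of each gene in the 6 comparisons, filled where the edgeR adjusted p was under 0.05. H2-Eb1 and H2-DMb1 passed in ATG-GGC100 against ATG-GGC11, and H2-DMa in both comparisons against TAG-GGC100 (0.43 and 0.47).

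The mixed glycine codon construct was set against the other groups. In ATG-GGN100dCT against ATG-GGC11 none of the 7 genes was called, against 6.66% of all genes, and 2 had an unadjusted p under 0.05, as had 23.8% of all genes. These were H2-DMa, with a log2 fold change of 0.38 ± 0.12 (edgeR adjusted p = 0.0657) and no overlap between the groups (9.21% of all genes did not overlap in that direction), and H2-DMb1, at 0.57 ± 0.24 (adjusted p = 0.149). DESeq2 called 1, H2-DMa (adjusted p = 0.0398), and so did edgeR without TAG-GGC100 replicate 3 (adjusted p = 0.0418; 0.0398 to 0.189 over the alternatives). Relative to TAG-GGC100, H2-DMa rose, with a mean of 4.04 ± 0.108 FPKM and a log2 fold change of 0.47 ± 0.12 (adjusted p = 0.0247). It was 1 of 7 genes called, where 8.69% of all genes were called in either direction and 4.3% higher in ATG-GGN100dCT. It did not overlap between these groups either, as 8.1% of all genes did not, higher in ATG-GGN100dCT. This call was lost without TAG-GGC100 replicate 2 or 4 or ATG-GGN100dCT replicate 4 (adjusted p = 0.0616 to 0.0949), and with only the 8 libraries compared (adjusted p = 0.0614). H2-Eb1 was lower in ATG-GGN100dCT by its mean, 0.983 ± 0.414 against 1.46 ± 0.108 FPKM, and did not pass (adjusted p = 0.215).

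In ATG-GGC100 against ATG-GGN100dCT none of the 7 genes was called by edgeR, against 2.05% of all genes, 4 had an unadjusted p under 0.05, as had 16.6% of all genes, and DESeq2 called 1. That gene was H2-Ab1, at 1.54 ± 0.258 against 0.608 ± 0.191 FPKM and a log2 fold change of 1.35 ± 0.39 (edgeR adjusted p = 0.0860). It passed in edgeR without ATG-GGC11 replicate 1 or 3 (adjusted p = 0.0299 to 0.0342; 0.0208 to 0.203 over the alternatives). Cd74 had a log2 fold change of 1.24 ± 0.46 (adjusted p = 0.189), and H2-Eb1 one of 0.92 ± 0.30 (adjusted p = 0.114). Cd74 and H2-Ab1 did not overlap between the groups, as 4.38% of all genes did not, higher in ATG-GGC100. H2-DMa was at -0.04 ± 0.12.

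The proportions between the genes were described after their values had been seen and were not tested. H2-Eb1 stood at 2.67 ± 0.487 (SD, n = 4) times the FPKM of H2-Aa in TAG-GGC100, with 1.94 in replicate 1 and 2.86 to 2.96 in the others. The ratio was 1.39 ± 0.363 in ATG-GGC100, 1.48 ± 0.788 in ATG-GGN100dCT and 1.53 ± 0.417 in ATG-GGC11. TAG-GGC100 did not overlap ATG-GGC100, and it overlapped ATG-GGN100dCT through replicate 3 (2.63) and ATG-GGC11 through replicate 1 (2.06). Cd74 stood at 6.06 ± 0.661 times H2-Aa in ATG-GGC100 and at 4.04 ± 0.834 times in ATG-GGC11. These 2 groups overlapped by a narrow margin, at 5.18 as the lowest of the one and 5.22 as the highest of the other. Set over H2-Ab1, the other I-A chain, the groups were less distinct. H2-Eb1 stood at 2.06 ± 0.472 times H2-Ab1 in TAG-GGC100 and 1.19 ± 0.287 times in ATG-GGC100, overlapping between 1.56 and 1.59. The ratio ran from 0.940 to 3.68 in ATG-GGC11, a range that held all TAG-GGC100 libraries, and was 1.63 ± 0.560 in ATG-GGN100dCT. Cd74 over H2-Ab1 was 5.27 ± 1.03 in ATG-GGC100 and 4.34 ± 1.54 in ATG-GGC11.

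**Figure D4:**
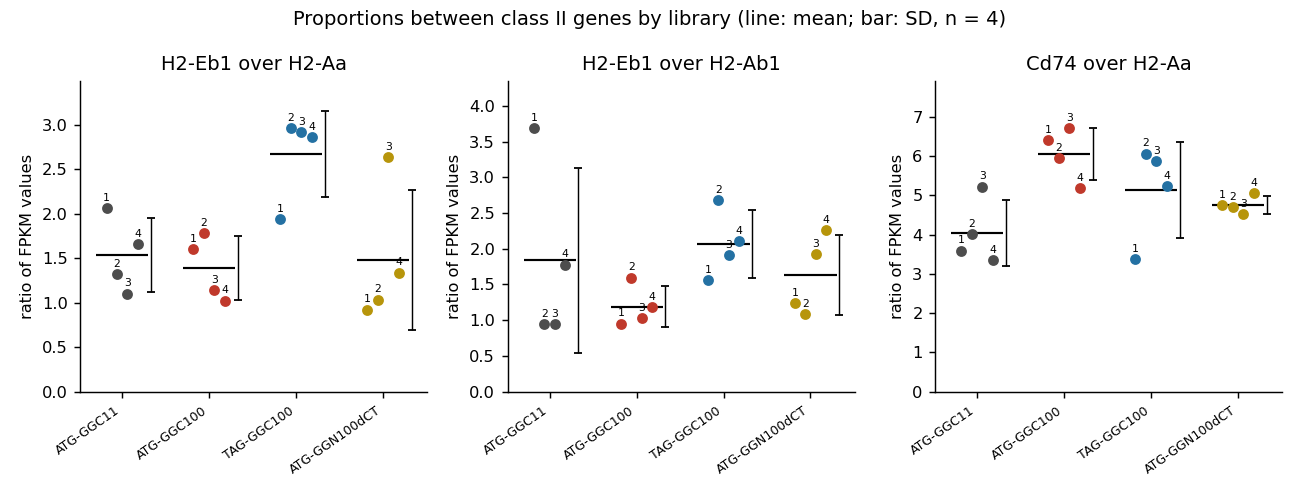
Ratios of FPKM values (linear axis from 0) in each library, numbered by replicate, with the group mean (line) and SD (bar, n = 4). H2-Eb1 over H2-Aa was 1.94 to 2.96 in TAG-GGC100 and 1.02 to 1.78 in ATG-GGC100.

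Among the other genes of the pathway, those of the class II family were scarce. H2-Ob, a chain of the H2-DM inhibitor H2-DO, rose in ATG-GGC100 against ATG-GGC11, with 0.27 ± 0.0852 against 0.095 ± 0.0129 FPKM and a log2 fold change of 1.48 ± 0.39 (edgeR adjusted p = 0.0390). It also rose against TAG-GGC100, by 1.57 ± 0.40 (adjusted p = 0.0212). H2-DMb2, the second β chain of H2-DM, was the other gene of this list of 5 that was tested, and it passed in no comparison. H2-Oa, the partner of H2-Ob, had 47 counts over the ATG-GGC100 libraries and 13 to 25 in the other groups, and was below the filter.

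Factors that carry class II transcription were called once. None of the 7 genes of the RFX, NF-Y and CREB factors passed in ATG-GGC100 against any other group. Over all genes, 3.5% were called in either direction there against ATG-GGC11, 7.44% against TAG-GGC100 and 2.05% against ATG-GGN100dCT. The 1 call in all comparisons was Rfx5 in ATG-GGN100dCT against TAG-GGC100 (0.33 ± 0.10, adjusted p = 0.0470). In that comparison 4.3% of all genes were called higher. Of 8 tested genes from interferon γ to Ciita, 2 rose in ATG-GGC100 against ATG-GGC11, where 2.2% of all genes were called higher. Among the 2 was the receptor chain gene Ifngr1, by 0.40 ± 0.08 (adjusted p = 0.0092), which also rose against TAG-GGC100, by 0.35 ± 0.08 (adjusted p = 0.0150). Irf2, of the same list, fell by 0.34 (log2) in ATG-GGN100dCT against TAG-GGC100 (adjusted p = 0.0446), where 8.69% of all genes were called in either direction. Ifng, the gene of the cytokine, had 4 counts in all, 1 in ATG-GGC11 and 3 in ATG-GGN100dCT.

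Endosomal proteases that cut the invariant chain and antigens were compared as a list. Of 7 genes, 6 rose in ATG-GGC100 against ATG-GGC11, 6 against TAG-GGC100 and 5 against ATG-GGN100dCT. Over all genes, 2.2% were called higher against ATG-GGC11 and 4.05% against TAG-GGC100, and 2.05% in either direction against ATG-GGN100dCT. The log2 fold changes against ATG-GGC11 were 1.17 ± 0.10 for Ctss (cathepsin S, which cuts the invariant chain), 0.85 ± 0.14 for Ctsh, 0.70 ± 0.09 for Ctsd and 0.41 ± 0.06 for the asparaginyl protease gene Lgmn. Ifi30, a thiol reductase of the endosome, did not pass in any comparison. The median over the 7 was 0.57 against ATG-GGC11, beside -0.0015 over all genes. None of the 3 genes of class II turnover, the ubiquitin ligases Marchf1 and Marchf8 and their antagonist Cd83, passed in any comparison. Over all genes, 0.00564% to 8.69% were called in either direction, depending on the comparison.

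Of 5 tested genes of co-stimulation and T cell contact, 3 rose in ATG-GGC100 against ATG-GGC11, where 2.2% of all genes were called higher. Lag3, a receptor that binds class II, rose from 3.09 ± 1.14 to 9.89 ± 1.97 FPKM, by 1.63 ± 0.25 (adjusted p = 0.0012). The co-stimulatory ligand Cd86 rose by 1.12 ± 0.24 (adjusted p = 0.0110) and the inhibitory ligand Cd274 by 0.84 ± 0.21 (adjusted p = 0.0313). The same 3 passed against TAG-GGC100, where 4.05% of all genes were called higher. Cd274 also rose in ATG-GGN100dCT, by 0.81 ± 0.21 against ATG-GGC11 and by 1.00 ± 0.22 against TAG-GGC100, and Lag3 in ATG-GGC100 against ATG-GGN100dCT, by 1.05 ± 0.24.

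Likeness of course over the 16 libraries was measured as the root mean square difference from Cd74 in log2 CPM centred on each gene's mean, with no test. Among 13493 genes with a mean of at least 1 FPKM the median difference was 0.947. The 5 nearest outside the 7 genes were Lyz2 (lysozyme; 0.377), H2-Q4 (an MHC class I gene; 0.456), Gbp2 (a guanylate-binding protein induced by interferon; 0.472), Fgfbp1 (which binds fibroblast growth factors; 0.487) and Lag3 (0.488). Of the other class II genes, H2-Aa (0.309) and H2-Ab1 (0.435) were close to Cd74. H2-Eb1 (0.625), H2-DMb1 (0.658), H2-DMa (0.880) and Ciita (1.10) were farther away. A gene with no change at all would lie at 0.927, so a larger distance can also reflect a smaller change. The class II genes were not held to the floor of 1 FPKM.

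Markers of microglia, border macrophages and meningeal fibroblasts were called higher in ATG-GGC100 in part. Their counts stand beside the 2.2% of all genes called higher against ATG-GGC11, 4.05% called higher against TAG-GGC100, and 2.05% called in either direction against ATG-GGN100dCT. Of 10 microglial markers, 4 rose in ATG-GGC100 against ATG-GGC11, 7 against TAG-GGC100 and 7 against ATG-GGN100dCT. Their summed level ran from 172 to 213 FPKM in ATG-GGC100, 119 to 142 in ATG-GGC11, 109 to 125 in TAG-GGC100 and 97.5 to 142 in ATG-GGN100dCT. Among those that rose against ATG-GGC11 were Cx3cr1, the fractalkine receptor gene, by 0.53 ± 0.12 and Csf1r, the receptor gene for colony stimulating factor, by 0.47 ± 0.10. Of 8 markers of border macrophages, 2 rose against ATG-GGC11, 2 against TAG-GGC100 and 3 against ATG-GGN100dCT. They summed to 5.66 to 7.42 FPKM in ATG-GGC100, 2.32 to 4.56 in ATG-GGC11, 3.59 to 4.56 in TAG-GGC100 and 2.53 to 3.18 in ATG-GGN100dCT. Mrc1, the mannose receptor gene, rose by 1.36 ± 0.18 against ATG-GGC11 (adjusted p = 0.000153). Of 8 markers of meningeal fibroblasts, 2 rose against ATG-GGC11, 4 against TAG-GGC100 and 2 against ATG-GGN100dCT. Their sums were 24.4 to 39.2 FPKM in ATG-GGC100, 12.6 to 24.7 in ATG-GGC11, 16.9 to 22.5 in TAG-GGC100 and 15.3 to 22.5 in ATG-GGN100dCT. The part of these cells in the class II levels was not tested.

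ATG-GGC11 replicate 3, with the highest Cd74, H2-Aa, H2-Ab1 and H2-Eb1 of its group, also had the highest sums of its group for these 3 lists: 142 FPKM for microglia, 4.56 for border macrophages and 24.7 for meningeal fibroblasts. For monocytes and neutrophils it held 8.2 FPKM, against 4.4 to 5.22 in the other libraries of its group. Its endothelial (38.7 FPKM), dendritic cell (8.97), endosomal antigen processing (320) and co-stimulation (7.33) sums were also the highest of its group. The B cell and T cell sums were highest in replicate 4 (0.46 and 16.3 FPKM). Replicate 3 had the lowest H2-DMa of the group, at 2.59 FPKM. The part of these cells in its class II levels was not tested either.

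Some markers of B cells, T cells and 1 class of dendritic cells were near 0, while other markers of these lists were detected. Of 7 B cell markers 1 was tested, Cd22. Ms4a1 had group means of at most 0.0175 FPKM, Cd79a of 0.2 to 0.335 FPKM and Cd79b of 0.0975 to 0.19 FPKM. The B cell sums ran from 0.65 to 0.84 FPKM in ATG-GGC100 and from 0.22 to 0.74 in the other groups. Of 10 T cell markers 3 were tested. The group means of Cd3e were at most 0.0325 FPKM, those of Trac 0.195 to 0.5225 FPKM and those of Cd4 1.65 to 2.28 FPKM. T cell sums ran from 7.15 to 17.8 FPKM in ATG-GGC100 and from 4.49 to 16.3 in the other groups, and most of each mean was Trbc2, at 7.44 to 11.6 FPKM. Lck, a kinase gene of T cells, was the 1 T cell marker called, higher in ATG-GGC100 against TAG-GGC100 (0.82 ± 0.25, adjusted p = 0.0460). Of 8 dendritic cell markers, 5 were tested and none passed in ATG-GGC100 against ATG-GGC11, where 3.5% of all genes were called in either direction. Xcr1 and Clec9a, which define a class of dendritic cells, had at most 0.065 FPKM as a group mean. The dendritic cell sums were 9.3 to 10.7 FPKM in ATG-GGC100 and 6.89 to 9.86 in the other groups, with Siglech counted among microglial markers too. The group means of Siglech were 4.29 to 6.31 FPKM, those of Zbtb46 1.41 to 1.53 and those of Flt3 0.925 to 1.49. Cd209a had a mean of 0.725 FPKM in ATG-GGC100 and 0.345 in ATG-GGC11, and Ccr7 0.1225 and 0.025. Flt3 and Zbtb46 went the other way by their means. In ATG-GGC100 against TAG-GGC100, Siglech was called higher (0.51 ± 0.13, adjusted p = 0.0241) and Flt3 lower (-0.72 ± 0.19, adjusted p = 0.0237), and against ATG-GGN100dCT Siglech was called higher (0.56 ± 0.13, adjusted p = 0.0309). Over all genes, 7.44% were called in either direction in ATG-GGC100 against TAG-GGC100 and 2.05% against ATG-GGN100dCT. Beside the H2-DMa levels of ATG-GGN100dCT, 7 of 8 hepatocyte markers were higher there than in each other group (24.5 ± 1.38 FPKM summed, against 3.03 to 4.05 as the other means), and the monocyte and neutrophil markers summed to 9.54 ± 1.06 FPKM against 5.74 ± 1.68 in ATG-GGC11 and 7.36 ± 1.70 in TAG-GGC100. Of the 5 monocyte and neutrophil markers tested, 1 was called higher against ATG-GGC11 and none against TAG-GGC100. Of 5 astrocyte markers, 3 were called lower in ATG-GGN100dCT against ATG-GGC11 and 1 against TAG-GGC100. Of 7 endothelial markers, 2 were called higher against ATG-GGC11 and 1 against TAG-GGC100. Called lower were 1 of 8 meningeal fibroblast markers against each of ATG-GGC11 and TAG-GGC100, and 1 of 8 border macrophage markers against TAG-GGC100. Over all genes, 6.66% were called in either direction in ATG-GGN100dCT against ATG-GGC11 and 8.69% against TAG-GGC100. Whether these signals bear on H2-DMa was not tested.

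**Figure D5:**
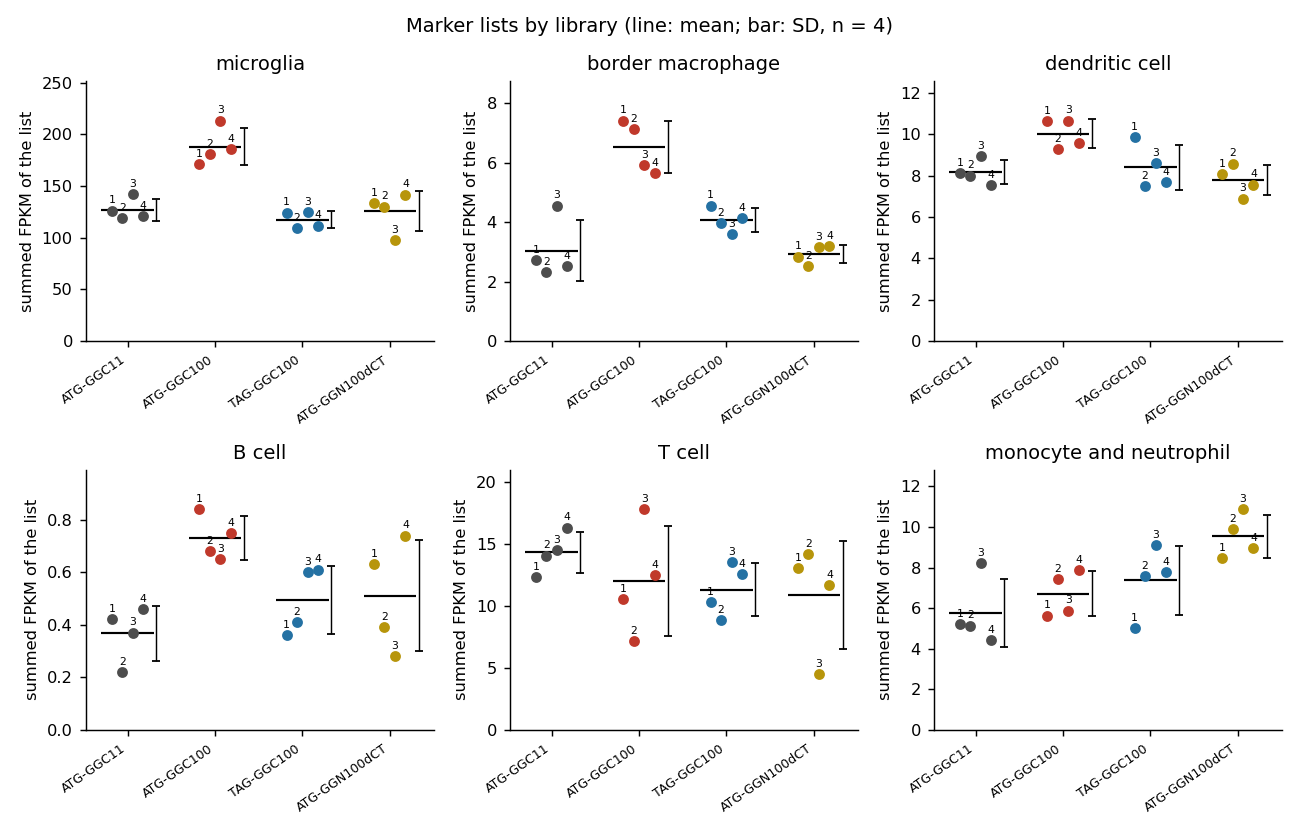
Summed FPKM (linear axis from 0) of 6 marker lists in each library, numbered by replicate, with the group mean (line) and SD (bar, n = 4). The microglial and border macrophage sums of ATG-GGC100 (172 to 213 and 5.66 to 7.42 FPKM) were above those of all other libraries.

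Along chromosome 17, 7 other genes tested lie between the first and the last of the H2 genes described here: Gm50335, H2-DMb2, H2-Ob, Psmb8, Psmb9, Tap1 and Tap2. The last 4 serve class I presentation, as subunits of the immunoproteasome and as the peptide transporter. In ATG-GGC100, 3 of the 7 rose against ATG-GGC11 (H2-Ob, Psmb8 and Tap1), 5 against TAG-GGC100 and 2 against ATG-GGN100dCT. Over all genes, 2.2% were called higher against ATG-GGC11 and 4.05% against TAG-GGC100, and 2.05% in either direction against ATG-GGN100dCT. In ATG-GGN100dCT, Tap1 rose against ATG-GGC11 and against TAG-GGC100, where 6.66% and 8.69% of all genes were called in either direction. None of the 7 passed in TAG-GGC100 against ATG-GGC11, where only 0.00564% of all genes were called, and none was called lower in any comparison.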

How the data were processed

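Poly(A) RNA was isolated with oligo(dT) beads from Trizol-extracted total RNA and primed at random, per the labels' protocols. The submitters' processing notes name FastQC 0.10.1, cutadapt 1.9.1 and the builds GRCm39 and mm10; neither an aligner nor a counter is given in the sources used here. In the deposited table are the authors' raw counts per gene and library. It also holds the authors' FPKM, recovered within 0.005 from counts, exonic length and library total. Rows of 4 construct sequences, at most 0.00714% of a library's counts, were left out.

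Counts were fitted with edgeR 4.0.16 in R 4.3.3 (filterByExpr with a minimum count of 10, TMM, robust quasi-likelihood, two-sided), all 16 libraries in 1 fit with the group as its only term. Adjusted p-values are Benjamini-Hochberg over 17737 genes within each of 6 comparisons. The fit was tested on simulated data. The alternatives were DESeq2 1.42.0, limma 3.58.1 on log2(FPKM + 1) and log2(FPKM + 0.1), other scalings and filters, the 8 libraries compared, a replicate block, and leaving out each library. In a chi-square test of counts, the 24 pairs of libraries within groups gave 4.82 to 22.7 per degree of freedom, well over sampling noise.

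The genes and lists were chosen with earlier results of these data known. Named were all 7 genes, up to 4 called members of each pathway list, markers by list, and the 5 genes nearest to Cd74; some genes that met this rule are not reported here. Motifs were searched on both strands of RefSeq windows.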

Additional observations from a re-analysis of the deposited data

Results flagged for a closer look

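Cd74 in TAG-GGC100 replicate 1, at 2.33 FPKM, was far below the other 3 libraries of its group, which lay between 2.88 and 2.97 FPKM, relative to the narrow range of that group. It was the only such library over 28 groups of 4 (7 genes in 4 constructs), and chance alone flags about 1 group in 20.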

How the results depend on the processing

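Of 1040 alternative values of single genes, 961 kept their direction and side of the threshold, 29 lost it, 31 passed it and 19 changed sign; the cause was not tested. In ATG-GGC100 against ATG-GGC11 (2 genes called), 4 were called by DESeq2, 4 by limma with a pseudocount of 1, 1 with only the 8 libraries compared, and 0 to 4 when a library was left out. In ATG-GGN100dCT against ATG-GGC11 (0 called) the count was 1 with library totals as scaling, DESeq2 and limma with a pseudocount of 1, and 0 to 1 without a library. In ATG-GGC100 against TAG-GGC100 (1 called) it was 3 by DESeq2, 2 by limma with a pseudocount of 1, 3 with only the 8 libraries compared (Cd74, H2-Aa and H2-Ab1, without H2-DMa) and 0 to 4 without a library. In ATG-GGN100dCT against TAG-GGC100 (1 called) it was 0 with only the 8 libraries, and 0 to 1 without a library. In ATG-GGC100 against ATG-GGN100dCT (0 called) it was 1 by DESeq2, 1 with only the 8 libraries, and 0 to 1 without a library. TAG-GGC100 against ATG-GGC11 had 0 under all 25 alternatives. Replicate numbers did not pair the libraries: same-numbered libraries correlated in their deviations by -0.206 to 0.193 over 24 pairs, 3 of them over 0.1. With the replicate number as a block, the count was 1 in ATG-GGC100 against ATG-GGC11 and 0 in ATG-GGC100 against TAG-GGC100, where H2-DMa had an adjusted p of 0.0605, and the same in the other comparisons. Signs changed for small, uncalled log2 fold changes. With limma these were H2-Aa in TAG-GGC100 against ATG-GGC11 (0.068, pseudocount 0.1) and H2-Ab1 in ATG-GGN100dCT against ATG-GGC11 (0.00049 and 0.15, pseudocounts 1 and 0.1). Without a library, TAG-GGC100 against ATG-GGC11 ranged from -0.22 to 0.82 for Cd74, -0.34 to 0.40 for H2-Aa, -0.23 to 0.66 for H2-Ab1 and -0.0086 to 0.16 for Ciita. ATG-GGN100dCT against ATG-GGC11 ranged from -0.061 to 0.73 for H2-Aa, -0.53 to 0.37 for H2-Ab1 and -0.045 to 0.50 for H2-Eb1. Cd74 ranged from -0.032 to 0.47 in ATG-GGN100dCT against TAG-GGC100, and H2-DMa from -0.10 to 0.015 in ATG-GGC100 against ATG-GGN100dCT. Counts over all genes were 621 (307 to 915), 1 (1 to 42), 1181 (386 to 1834), 1320 (526 to 1769), 1542 (515 to 2123) and 363 (165 to 695) in the order of the comparisons in the plot of log2 fold changes. Depth limits these genes: H2-Ab1 had 8 to 74 counts per library and H2-Eb1 12 to 83.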

Other observations

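Cd22, an inhibitory receptor of B cells that microglia can also carry, was the 1 tested gene of the B cell list. It had 92 counts over the 4 ATG-GGC100 libraries, 35 in ATG-GGN100dCT, 11 in ATG-GGC11 and 10 in TAG-GGC100. It rose in ATG-GGC100 by 2.92 ± 0.38 (log2) against ATG-GGC11 (edgeR adjusted p = 0.000122) and in ATG-GGN100dCT by 1.65 ± 0.43 (adjusted p = 0.0281).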
